A study of Rana pirica with 14 samples.

Results

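Tails of Rana pirica tadpoles sampled while a predator was still with them were compared with tails sampled after the predator had been taken away, with both predators of the experiment pooled. The members are 12 of the 14 arrays of the series, 6 from tadpoles with a predator and 6 from tadpoles after removal, and they were chosen by their labels. Drago (n = 3 arrays) stands for 8 days with a dragonfly larva, and Salam (n = 3) for 8 days with larval salamanders. The tadpoles of −Drago (n = 3) and −Salam (n = 3) had the same predators for 4 days and none for the next 4. All 12 arrays therefore come from tadpoles that had met a predator, and all were sampled on day 8. Exposure lasted 8 days on every array with a predator and 4 on every array after removal. Presence at sampling and length of exposure thus cannot be told apart. The tadpoles were 10 days old at the start and, per the labels, had not yet grown hind limbs. The dragonfly larva was caged, whereas the methods describe the larval salamanders as replaced daily to limit the loss of tadpoles, so the 2 predators also differed in how they were offered. The 2 arrays of tadpoles never exposed to a predator were not used here.

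Tadpoles of many frogs change shape when predators share their water, and R. pirica is known for a deeper tail with dragonfly larvae and for a bulgy body with a deepened tail with larval salamanders. Such induced defences can be lost again when the threat is gone. A tadpole tail consists mainly of axial muscle, notochord, spinal cord, a fin of loose matrix and a cover of epidermis, so genes of these tissues, of matrix turnover and of the stress hormone axis were described alongside the genes with the smallest p. In a bulk sample of this kind, fewer cells of a type and less RNA per cell cannot be told apart.

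The array carries probe sets designed for Xenopus laevis, and labelled RNA of R. pirica was hybridized to it. A value is a log2 signal from which the median of the probe set over the 14 arrays was taken away, so 0 is the middle of those arrays and a difference of 1 is a change of 2 fold. The level of the signal is lost by this step. Tissue markers could therefore be compared between arrays but could not show which tissue was sampled. A gene symbol names what the probe set was designed to read, where .L and .S mark the 2 copies that X. laevis keeps on a longer and a shorter chromosome, and which R. pirica transcript binds it was not tested. Arrays of 1 group are labelled as biological replicates, yet labels and methods alike describe tails collected in a single tube before extraction, and whether the 3 arrays of a group share 1 pool of RNA is not settled. Here n counts arrays, so a p-value reads the spread from array to array, part or all of which may be technical.

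No probe set passed the test of predator presence. Of 15491 probe sets tested with limma, 0 (0%) reached a Benjamini-Hochberg adjusted p under 0.05, and the smallest adjusted p was 0.472. At an unadjusted p under 0.05 there were 821 (5.30%), where a share of 5% would be 775 probe sets. Of these, 439 (2.83% of all tested) were higher with a predator and 382 (2.47%) were lower. In the test of the presence by predator interaction, which asks whether the difference between presence and removal itself differed between dragonfly and salamander, 0 (0%) passed as well, with a smallest adjusted p of 0.570, and 856 (5.53%) had an unadjusted p under 0.05. The genes described below are the ones with the smallest p in tests that none of them passed, so their values are descriptions of these 12 arrays.

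The arrays of a group did not resemble each other more than arrays of different groups. Across the 15491 probe sets, correlations between pairs of the 12 arrays ran from -0.0257 to 0.0127, and those between arrays of the same group from -0.0187 to 0.00999. Probe sets share arrays and are not independent, so these are given as descriptions with no p. The median SD within a group was 0.979 on the log2 scale, and the median SE of a presence difference was 0.54. Added control transcripts were spread unevenly over the arrays. Dap, a Bacillus subtilis transcript with a poly-A tail that is added before labelling, was between 3 and 4.17 on 4 of the 6 arrays with a predator (Drago 1 and 2, Salam 1 and 2) and on 1 of the 6 after removal (−Salam 1, at 3.28), and at -0.613 or below on the other 7. Its mean was 1.87 ± 2.83 (SD, n = 6) with a predator and -0.702 ± 2.05 (SD, n = 6) after removal, with an exact permutation p of 0.16 (two-sided, arrays permuted within predator; the smallest possible p is 0.005). Over the 5 poly-A and 4 hybridization controls the smallest exact p was 0.075, for Thr, and the smallest adjusted over the 9 was 0.36. With the high and low arrays as a term in the model, 0 probe sets passed and 850 had an unadjusted p under 0.05, of which 407 were higher and 443 lower with a predator. On the 7 low arrays alone (2 with a predator, 5 after removal) 0 passed and 860 had such a p. The 5 high arrays (4 and 1) hold no array of −Drago. With predator as a term, a difference on them therefore reads only Salam 1 and 2 against −Salam 1, and the Drago arrays do not enter it.

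aqr.L, which encodes an RNA helicase of the spliceosome, had the smallest p of all. Its signal ran from 0.638 over a median of 1.28 to 1.5 on the 6 arrays with a predator and from -1.6 over -1.23 to -0.316 on the 6 after removal. Every array with a predator lay above every array after removal. The means were 1.18 ± 0.34 and -1.09 ± 0.506 (SD, n = 6 each), a difference of 2.27 ± 0.374 (SE) or 4.83 fold, with an unadjusted p of 3.4e-05 and an adjusted p of 0.472 by limma. The difference was 2.49 under the dragonfly and 2.05 under the salamander.

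tpd52.L, for a coiled-coil protein of vesicle traffic, ran from 0.423 over 1.01 to 1.26 with a predator and from -2.09 over -1.24 to -0.423 after removal. The groups did not overlap, and the difference was 2.18 ± 0.388 (SE). The nearest arrays lie equally far from 0 because they are the middle pair of the 14 from which the median was formed. zbtb33.S encodes Kaiso, a transcription factor that binds methylated DNA and the catenin p120. Its values spread from 0.0226 over 2.01 to 2.90 with a predator and from -2 over -0.788 to -0.0226 after removal. Here the groups met almost without a gap, and the difference of 2.73 ± 0.536 (SE) was 1.49 on the 7 arrays with low poly-A controls alone.

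smc3.L, a subunit of the cohesin ring that holds sister chromatids together, lay between 0.979 and 2.13 with a predator and between -1.91 and -0.979 on 5 of the arrays after removal. The sixth, −Salam 3, was at 1.31, inside the range with a predator. The difference was 2.16 ± 0.466 (SE), −Salam 3 included. ostf1.L, named for osteoclast stimulation in mammals and coding for a small adaptor protein, was at -0.403 to 1.23 with a predator. After removal it was at -3.74 to -1.85 on 5 arrays and at 0.0852 on −Salam 2. orai2.S, a channel for the calcium entry that follows emptying of cell stores, was at 0.78 to 2.82 on 5 arrays with a predator and at -1.46 on Salam 2, and its values after removal ran from -1.74 to -0.226. In each of these 3 genes 1 array therefore lay among those of the opposite condition.

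krt12.2.L, a keratin of the kind that makes up the filaments of epithelial cells, was nearly level with a predator, from -0.295 over 0.157 to 0.331. After removal it was at -4.12, -2.13 and -3.60 in −Drago and at 0.0191, -3.68 and -0.220 in −Salam. All the low arrays were arrays after removal, and 2 of the 3 arrays of −Salam lay in the range with a predator. The difference was 2.41 ± 0.608 (SE), or 3.26 under the dragonfly and 1.56 under the salamander. On the 5 arrays with high poly-A controls, where it reads Salam 1 and 2 against −Salam 1, it was 0.211. pdap1.L, for a protein that binds platelet-derived growth factor in mammals, was at 3.31, 3.60 and 3.52 in Salam and between -0.606 and -0.448 in Drago, with -0.748 to 0.629 over the arrays after removal. Its pooled difference of 1.44 ± 0.363 (SE) was made up of 3.27 under the salamander and -0.402 under the dragonfly. The value on the 5 arrays with high poly-A controls was 3.31, which reads the salamander arrays alone. The study had selected this probe set on these same arrays.

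Also among the 12 with the smallest p and a higher mean with a predator were ranbp3.L (1.77 ± 0.429, SE), a helper of nuclear export, and smim7.S (2.26 ± 0.573), a small membrane protein. The other 2, XB5768883.L (2.17 ± 0.48) and XB5845204.L (1.90 ± 0.457), are known only by a database name. On the 7 arrays with low poly-A controls ranbp3.L differed by 0.797 and XB5768883.L by 1.36. On the 5 with high ones, which compare Salam 1 and 2 with −Salam 1, ranbp3.L differed by 2.77 and XB5845204.L by 0.699. Adjusted p-values of all 12 ran from 0.472 to 0.618.

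Among the probe sets with a lower signal with a predator, tmem30a.S came first. It encodes the partner subunit of the flippases that move phospholipids to the inner leaf of membranes. The signal ran from -1.45 over -0.207 to 0.0677 with a predator and from 0.569 over 2 to 3.89 after removal. The groups did not overlap. The means were -0.455 ± 0.587 and 2.04 ± 1.17 (SD, n = 6 each) and the difference was -2.49 ± 0.507 (SE), or 5.62 fold, with an adjusted p of 0.472 by limma. It was -1.72 under the dragonfly and -3.26 under the salamander. On the 5 arrays with high poly-A controls, where it reads Salam 1 and 2 against −Salam 1, it was -4.10.

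tamalin.L, a scaffold protein for receptors at synapses in mammals, showed a narrow spread with a predator, from -1.2 over -0.901 to -0.724, and ran from -0.0116 over 0.453 to 0.857 after removal. No array lay between -0.724 and -0.0116. The difference was -1.37 ± 0.342 (SE), at -1.40 under the dragonfly and -1.35 under the salamander. eef1g.S, a subunit of the factor that brings transfer RNA to the ribosome, was at -2.22 to -0.291 with a predator and at 0.291 to 1.81 after removal, a difference of -1.89 ± 0.452. siae.S, an enzyme that trims acetyl groups from sialic acid, was at -2.07 to -0.115 and at 0.115 to 1.25. znf182, a zinc finger protein, was at -1.08 to 0.0433 and at 0.396 to 2.86. In none of these 4 did the groups overlap, and adjusted p-values for all 4 were 0.618 by limma.

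Of the remaining 7 lower probe sets, each had some overlap between the conditions. mfsd14bl.S, a membrane transporter, differed by -1.91 ± 0.414 (SE), with -2.94 under the dragonfly and -0.885 under the salamander. camk2g.S, a calcium-dependent kinase, showed the reverse order, with -0.34 under the dragonfly and -2.56 under the salamander. btf3.S (-1.88 ± 0.485), which guards new proteins at the ribosome, purb.S (-1.89 ± 0.498), a protein that binds purine-rich DNA, and cept1.S (-1.70 ± 0.458), an enzyme of phospholipid synthesis, were lower under both predators. So were tagln.L (-1.79 ± 0.466), an actin-binding protein of smooth muscle, and tmem259.S (-1.46 ± 0.425), a protein of the endoplasmic reticulum. For tmem259.S the difference was -2.43 under the dragonfly and -0.485 under the salamander. The 5 arrays with high poly-A controls compare Salam 1 and 2 with −Salam 1. On them btf3.S differed by -0.437, eef1g.S by -0.92, siae.S by -1.12 and mfsd14bl.S by -1.24, whereas camk2g.S differed by -3.2 and tagln.L by -2.78. On the 7 with low ones tagln.L differed by -1.02 and tmem259.S by -0.764.

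**Figure D1:**
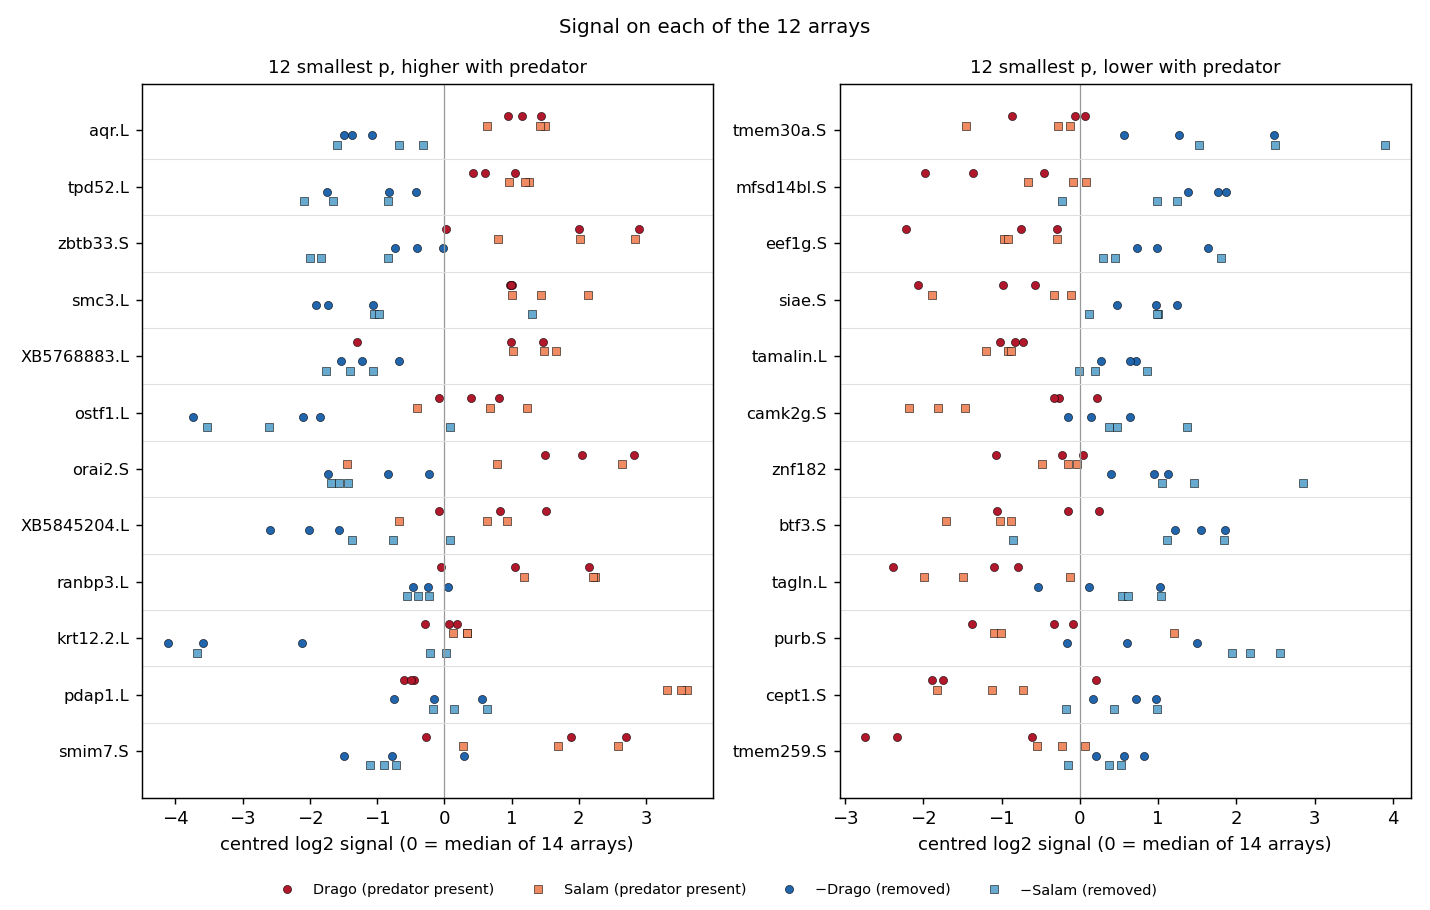
Centred log2 signal (x axis, 0 is the median of the 14 arrays) of the 12 probe sets with the smallest p that were higher (left) and the 12 that were lower with a predator (right), 1 point per array. Red and orange points are arrays with a predator and blue points arrays after removal. aqr.L, tpd52.L, zbtb33.S, tmem30a.S, eef1g.S, siae.S, tamalin.L and znf182 show no overlap, and pdap1.L is high in Salam alone.

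Separation of all 6 arrays from all 6 was seen for 34 probe sets (0.219%), 23 higher (0.148%) and 11 lower with a predator (0.0710%). Of the 34, 30 had an unadjusted p under 0.05, 24 carry 1 gene symbol and 8 are described above. Those not yet named include arntl.L, a partner in the circadian clock (1.63 ± 0.425, SE), tbx5.S, a transcription factor of heart and forelimb (1.5 ± 0.433), and cdh2.L, the adhesion protein N-cadherin (1.14 ± 0.413). They also include pou3f3.S, a neural transcription factor (1.77 ± 0.513), the ribosomal protein gene rps20.L (1.26 ± 0.411) and, lower with a predator, gnb3.S, a subunit of G proteins (-1.70 ± 0.556). These 6 were chosen after their values had been seen. When the 2 predators were taken apart, 69 probe sets (0.445%) had 3 arrays against 3 without overlap in both predators in the same direction, and 94 (0.607%) in opposite directions. With arrays permuted within predator, each of these 2 outcomes has an exact share of 0.005, and both shares seen lie near it. All 34 are among the 69, whose share lies near the exact one, so their separation is not read as a result about these genes. Whether the 34 exceed the number that would separate with no effect was not tested.

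Most of these genes have further probe sets on the array, which gives a second reading of the same gene. Of the 24 named probe sets, 19 had at least 1 other with the same symbol apart from the suffix, 54 others in all. The other probe sets had the same sign of the difference in 24 of 54 cases. None with the same sign had an unadjusted p under 0.05, and 2 with the opposite sign did. The plainest case was krt12.2.L. Its second probe set, whose name ends in _x_at because it can also read related transcripts, averaged -1.83 with a predator and 0.456 after removal, a difference of -2.28 ± 0.754 (SE, unadjusted p by limma 0.00946) against 2.41 for the first. The named probe sets of aqr.L, tpd52.L, smim7.S and btf3.S end in _x_at as well, so the same limit holds for them. For aqr.L the other 2 differed by 0.03 ± 0.509 and -0.68 ± 0.487. For tpd52.L the other 4 ran from -0.97 to 0.53. camk2g.S had 22 others, between -0.889 and 1.54, and the one at 1.54 ± 0.56 had an unadjusted p of 0.016 in the opposite direction. Of the other probe sets with the same sign, the one with the smallest unadjusted p by limma (0.109) was 1 of the 3 others of mfsd14bl.S, at -0.879 ± 0.512, and the remaining 2 of that gene were at -0.0891 and -0.0272. The probe set designed for the .S copy of tagln differed by -0.874 ± 0.584.

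**Figure D2:**
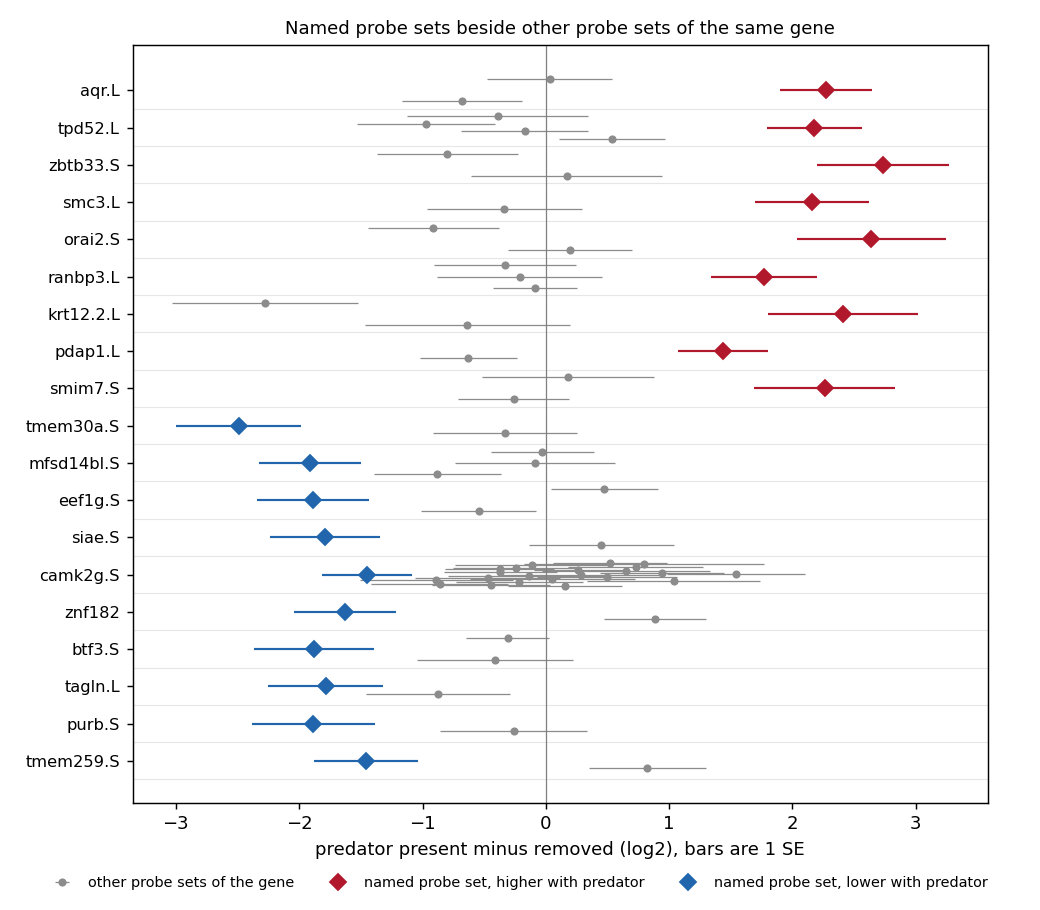
Difference between predator present and removed (x axis, log2, bars are 1 SE) for the named probe sets (diamonds, red higher and blue lower with a predator) and for the other probe sets of the same gene (grey points). The grey points lie on both sides of 0, and for krt12.2.L they lie opposite the diamond, at -2.28 and -0.637.

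The same reading over all genes gave the same picture. For the 976 gene symbols with exactly 2 probe sets, the presence differences of the first and the second correlated at -0.00904 across genes, and 473 (48.5%) had the same sign. Over the 12 arrays the correlation between both probe sets of a symbol had a median of -0.0202. For 750 genes with 1 probe set designed for each X. laevis copy the correlation of the differences was -0.0215, with 48.7% of the same sign. These points share the same arrays and are given with no p. In 99 of the 976 symbols at least 1 probe set had an unadjusted p under 0.05, and in 5 both did, 3 of these with the same sign. Of the 750 pairs of copies, 73 had at least 1 such probe set and 1 had both, with the same sign. The share of all probe sets with such a p was 5.30%. Whether 5 and 1 exceed the counts with no effect was not tested, so they are not read as results about these genes.

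The 3 symbols with both probe sets on the same side were all higher with a predator. tbx5.S differed by 1.5 ± 0.433 (SE) and 1.11 ± 0.51 in its 2 probe sets. slc22a5.L, a carnitine carrier, differed by 1.56 ± 0.599 and 1.81 ± 0.609. cgl.2.L, which X. laevis eggs use as a lectin of the cortical granules, differed by 1.09 ± 0.477 and 1.11 ± 0.505. The 1 pair of copies was that of cap1, which regulates actin. It was lower in the probe sets of both cap1.L (-1.5 ± 0.671) and its .S partner (-1.37 ± 0.535). None of these had an adjusted p under 0.05. The second probe set of tbx5.S ends in _x_at, and the names of the 2 of slc22a5.L differ only in their ending, _a_at and _x_at. Whether such pairs are independent readings was not tested.

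The differences under the 2 predators were uncorrelated across probe sets. Across probe sets the difference between Drago and −Drago correlated at -0.00657 with that between Salam and −Salam, which share no arrays, and 50.1% of probe sets had the same sign under both. The correlation is a description across probe sets with no p. Arrays of the same group correlated near 0 as well (-0.0187 to 0.00999), so this correlation cannot show whether the predators share a pattern.

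**Figure D3:**
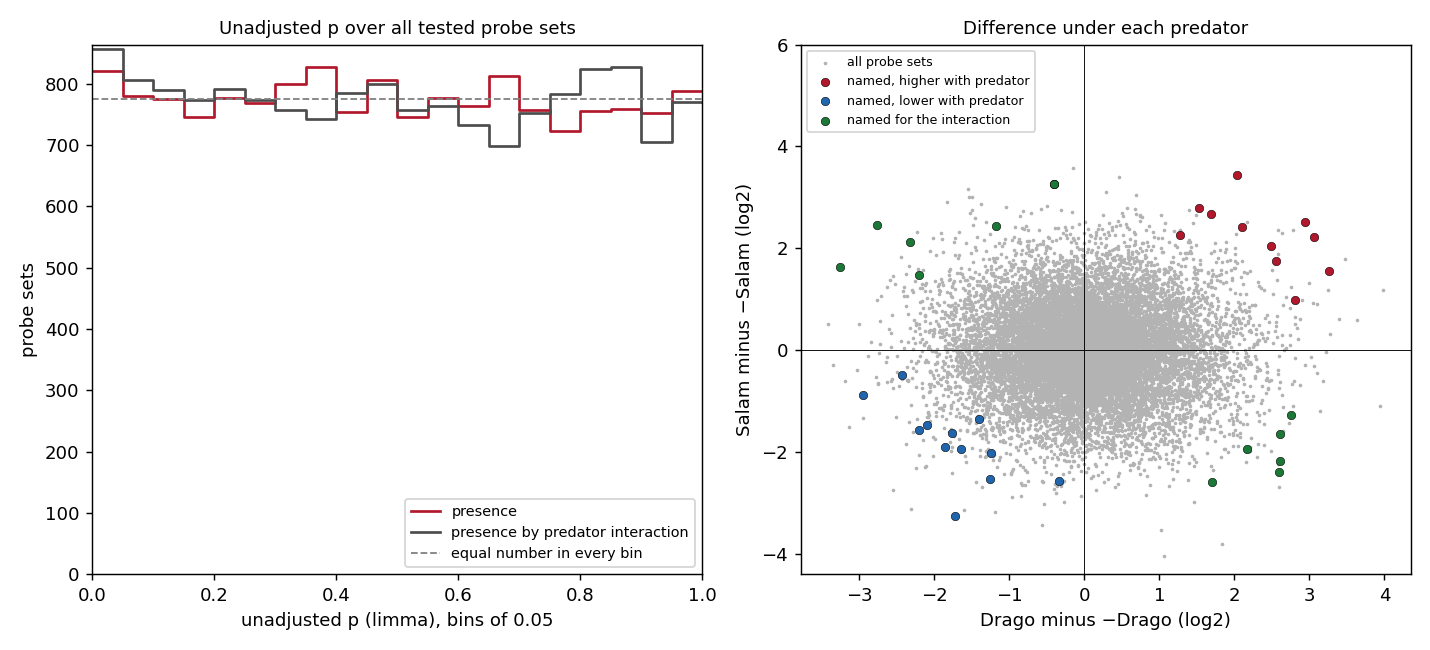
Left, number of probe sets (y axis) by unadjusted p (x axis, bins of 0.05) for presence and for the interaction, with a dashed line at an equal number per bin. The first bins hold 821 and 856 against 775. Right, difference under the salamander against that under the dragonfly (both log2), 1 grey point per probe set with the named ones in colour. The cloud shows no tilt, and the named points lie at its corners because they were chosen for it.

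In each of the 12 probe sets named for the interaction the difference had one sign under the dragonfly and the opposite sign under the salamander. They were chosen for the smallest interaction p, which favours opposite signs, so the signs are not independent evidence. vps35.S, a part of the retromer that returns membrane proteins from endosomes, was at -0.373, 0.373 and 1.25 in Drago and at -1.89, -0.983 and -0.984 in −Drago. It was at -1.19, -2.53 and -1.66 in Salam and at 0.878, 0.606 and 0.877 in −Salam. The signal was thus higher with the dragonfly than after it and lower with the salamander than after it, an interaction of 4.29 ± 0.829 (SE) with an adjusted p of 0.570 by limma.

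Others of the same direction were psma2.L (5 ± 1), a subunit of the proteasome core, and kars1.L (4.11 ± 0.883), which loads lysine onto its transfer RNA. vegfd.L (4.26 ± 0.955) encodes a growth factor of lymph vessels. Its signal was between -2.48 and -1.68 in −Drago and between 0.211 and 1.39 in Drago. The salamander arrays of this gene overlapped, with Salam at -1.41 to 0.095 and −Salam at -0.095 to 2.16. sytl5.L (4.79 ± 0.973) helps secretory vesicles to dock, and pcdh1.L (4.03 ± 0.906) is a protocadherin of cell contacts.

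In the opposite direction dguok.L, a mitochondrial kinase for the precursors of DNA, had the largest of the 12 values at -5.23 ± 0.958 (SE). It was at -2.57 to -1 in Drago against -0.00528 to 1.77 in −Drago, and at 0.00528 to 1.30 in Salam against -2.36 to -0.80 in −Salam. Neither pair overlapped. myh6.S, a myosin heavy chain of heart muscle in mammals, was at 2.29 to 2.96 in −Drago and at -0.80 to -0.318 in Drago. In Salam it spread from -0.38 to 3.45. sdc2.S, a heparan sulfate proteoglycan of the cell surface, was at -1.96 to -1.51 in Drago and at 0.51 to 0.911 in Salam, with −Drago (-0.874 to 1.43) and −Salam (-1.17 to -0.51) between or beside them. pdap1.L (-3.67 ± 0.726), sytl1.S (-3.61 ± 0.824), a relative of sytl5.L, and lcat.L (-4.45 ± 1.03), an enzyme of cholesterol transport, completed the 6. The study had singled out syndecan-2 and the probe set of pdap1.L on these same arrays. All 12 had an adjusted p of 0.570 by limma. 5 of the 12 had other probe sets of the same gene, 11 in all, of which 4 had the sign of the named one and 0 an unadjusted p under 0.05 by limma. Of those with the same sign, pdap1.S was at -1.66 ± 0.784 (SE) and 1 of the 2 others of sytl1.S at -1.74 ± 1.18, whereas the other one was at 0.563 ± 1.35. The 4 of myh6.S ran from -0.231 to 2.35.

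**Figure D4:**
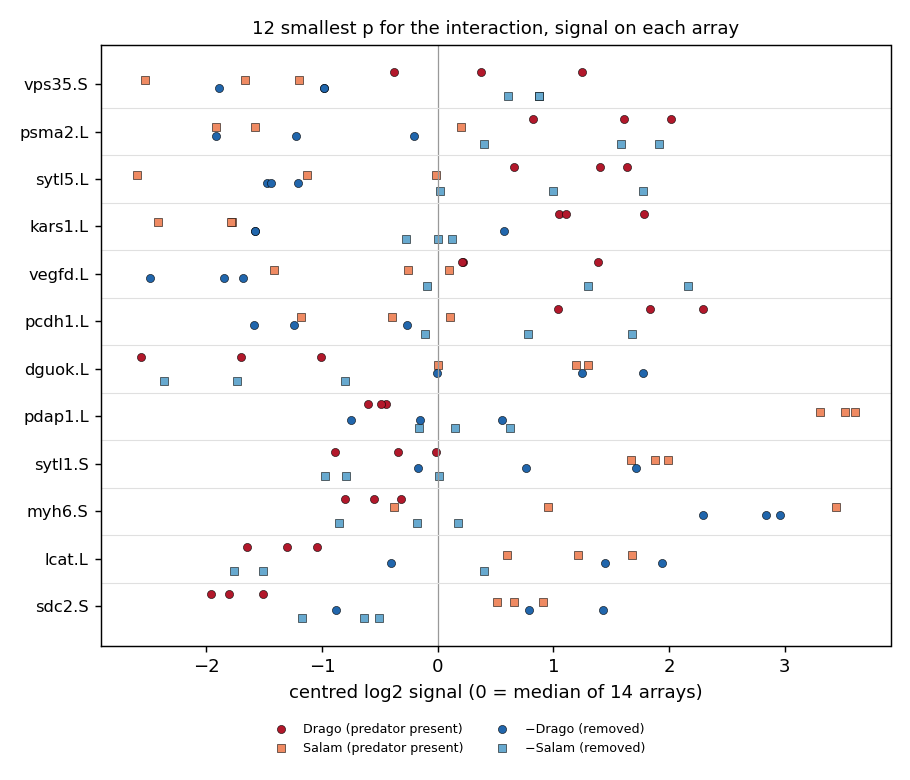
Centred log2 signal (x axis) of the 12 probe sets with the smallest interaction p, 1 point per array, circles for the dragonfly and squares for the salamander, red or orange with the predator and blue after removal. For dguok.L the Drago arrays lie at -2.57 to -1 and the Salam arrays at 0.00528 to 1.30.

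Described by tissue, 0 probe sets of any list passed either test. Among 95 probe sets of epidermis (keratins, desmosomes and claudins), 6 were higher and 2 lower with a predator at an unadjusted p under 0.05 (8.42% against 5.30% of all), with a median difference of 0.151 against -0.001 over all probe sets. Besides both krt12.2.L sets these were krt12.6.S (1.83 ± 0.486, SE), jup.L, the plakoglobin of cell junctions (1.59 ± 0.52), cldn6.1.L (1.59 ± 0.528) and cldn5.L (1.29 ± 0.517) of tight junctions, epcam.L, an epithelial adhesion protein (1.46 ± 0.568), and upk1a.S, a uroplakin (-1.2 ± 0.457). Of those counted for epidermis, epcam.L and upk1a.S are not of the 3 kinds named, so its share does not describe these kinds alone. Among 82 of muscle, 1 was higher and 3 lower (4.88%), with a median of -0.037. The lower ones were tpm4.L, a tropomyosin (-1.64 ± 0.568), tnnc2.L, the calcium sensor of fast fibres (-1.35 ± 0.484), and mef2d.S, a transcription factor of muscle (-0.93 ± 0.398). Neural genes had 1 higher and 2 lower of 71 (4.23%), with a median of -0.039, and immune genes 1 and 1 of 78 (2.56%, median -0.072). Erythrocyte genes had 1 and 0 of 25 (4%, median -0.237), and notochord and cartilage 0 and 0 of 18 (0%, median 0.066). The erythrocyte list also holds epb41l1.S, epb41l3.L and epb41l4a.S, relatives of epb41.L that are not particular to red cells. Apart from epidermis, the shares of these tissue lists were below the 5.30% of all probe sets.

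Among 30 probe sets listed for the basement membrane, on which the epidermis rests, 2 were higher and 1 lower (10% against 5.30% of all probe sets), with a median of 0.053. The list also holds syndecans and integrins, which sit on the cell surface. Of those counted, sdc4.L and itgb1.L are of this kind, so the share does not describe the membrane alone. Laminins, large glycoproteins of this membrane, are not in the list, so its count and median do not cover them. sdc4.L, a proteoglycan that helps cells attach (1.60 ± 0.519, SE), and the collagen gene col4a2.L (1.2 ± 0.489) were higher, and the integrin gene itgb1.L was lower (-1.07 ± 0.48). The partner collagen col4a1.L, which is built into the same triple helix as col4a2, differed by -0.74 ± 0.42 and 0.12 ± 0.541 in its probe sets. Other probe sets were at 0.55 ± 0.529 for col4a2.L, 0.19 ± 0.392 for itgb1.L, and 1.08 ± 0.682 and 0.47 ± 0.408 for sdc4.L. The 63 probe sets of the interstitial matrix and its proteases held 1 higher, p4hb.S (1.47 ± 0.603), which helps fold collagen, and 2 lower, col5a1.L (-1.32 ± 0.503) and the protease inhibitor timp2.S (-1.18 ± 0.458). These are 4.76% of the list, again against 5.30%, and its median was 0.155. For timp2.S the difference was -2.13 under the dragonfly and -0.238 under the salamander, and timp2.L differed by 0.30 ± 0.513.

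In the stress hormone axis, through which corticotropin-releasing hormone drives corticosterone in tadpoles, 0 of 25 had an unadjusted p under 0.05. The receptor crhr2.S came nearest (1.58 ± 0.739, SE), followed by sgk1.L (0.93 ± 0.481), a kinase that corticosteroids induce. pomc.L, the precursor of corticotropin, differed by -0.58 ± 0.683, and the glucocorticoid receptor gene nr3c1 by -0.42, -0.34 and -0.10 in its 3 probe sets. Thyroid hormone and metamorphosis genes had 0 higher and 1 lower of 37 (2.7% against 5.30% of all), with a median of -0.024. The lower one was timp2.S, which is also counted in the list of the interstitial matrix.

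Signalling by BMP, Wnt and FGF, which shapes fins and limbs, had 9 higher and 2 lower of 136 (8.09% against 5.30% of all probe sets, of which 2.83% were higher and 2.47% lower), with a median of 0.034. grem1.L, which blocks BMPs and which the study had selected on these same arrays, came first (1.34 ± 0.345, SE). It differed by 2.36 under the dragonfly and 0.32 under the salamander. The others higher were id2.L, a target of BMPs (1.65 ± 0.677), the ligands bmp2.L (1.10 ± 0.477), fgf8.L (1.08 ± 0.474) and fgf4.S (1.19 ± 0.545), the receptor fgfr1.L (1.35 ± 0.612), the protease bmp1.L (1.19 ± 0.53), the Wnt inhibitor frzb.L (0.996 ± 0.422) and axin2.L (1.27 ± 0.587), which Wnt signals induce. sfrp5.L (-0.84 ± 0.356), another Wnt inhibitor, and tcf7l2.L (-0.85 ± 0.366), a transcription factor of the Wnt pathway, were lower. Their differences were -2.27 and -2.21 under the dragonfly and 0.58 and 0.51 under the salamander. Ligands and inhibitors of these pathways are thus both among the higher ones. The study had also singled out Frzb-1 on these same arrays.

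With all 12 arrays, ribosomal protein genes had the smallest median SE of the lists, at 0.406. Of 91 probe sets of cytosolic ribosomal proteins, 37 (40.7%) had a 95% confidence interval that lay wholly within 1 of 0 on the log2 scale, against 1358 of all probe sets (8.77%), and 1 was higher and 1 lower (2.2% at an unadjusted p under 0.05, against 5.30% of all), with a median of -0.089. This number depended on the arrays used. It was 18 of 91 without −Drago 2 and 33 without Drago 1, with the other 10 arrays between these, against 756 and 1038 of all probe sets. With the poly-A level as a term it was 17 (all probe sets, 364), and it was 0 of 91 within either poly-A level. The interval of rpl8.S ran from -0.814 to 0.567 and that of rpl23.S from -0.727 to 0.658. The muscle list had 16 of 82 (19.5%) with such an interval, among them tpm1.L (-0.758 to 0.652), and the epidermis list 5 of 95 (5.26%). Mitochondrial respiratory chain genes had 1 higher and 1 lower of 82 (2.44%, median -0.004).

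The cell cycle list had 5 higher and 7 lower of 197 (6.09%, near the 5.30% of all probe sets), with a median of -0.108. smc3.L was the first of the higher ones, and the kinase gene plk1.S (-1.28 ± 0.502, SE) and the kinetochore gene ndc80.S (-1.48 ± 0.65) were among the lower. Heat shock and chaperones had 4 and 2 of 130 (4.62%, median -0.081), with hspb1.S, a small heat shock protein, at -1.38 ± 0.47 and cct7.S, a part of the chaperonin for actin and tubulin, at 2.57 ± 0.907. Ubiquitin and proteasome genes had 5 and 3 of 179 (4.47%, median 0.001), hypoxia and vessels 3 and 1 of 67 (5.97%, median 0.087), apoptosis 1 and 2 of 41 (7.32%, median -0.055), and water and ion transport 1 and 1 of 63 (3.17%, median 0.096). Genes that the study had singled out were chosen on these same arrays, so their count is not independent evidence. Of their 82 probe sets, 12 were higher and 4 lower (19.5% against 5.30% of all), with a median of 0.18. Among them a probe set shared by both X. laevis copies of dpm1, for a step of protein glycosylation, was at 1.82 ± 0.378 (SE, adjusted p 0.472 by limma). The 2 designed for single copies were at 0.78 ± 0.659 and -0.70 ± 0.751.

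**Figure D5:**
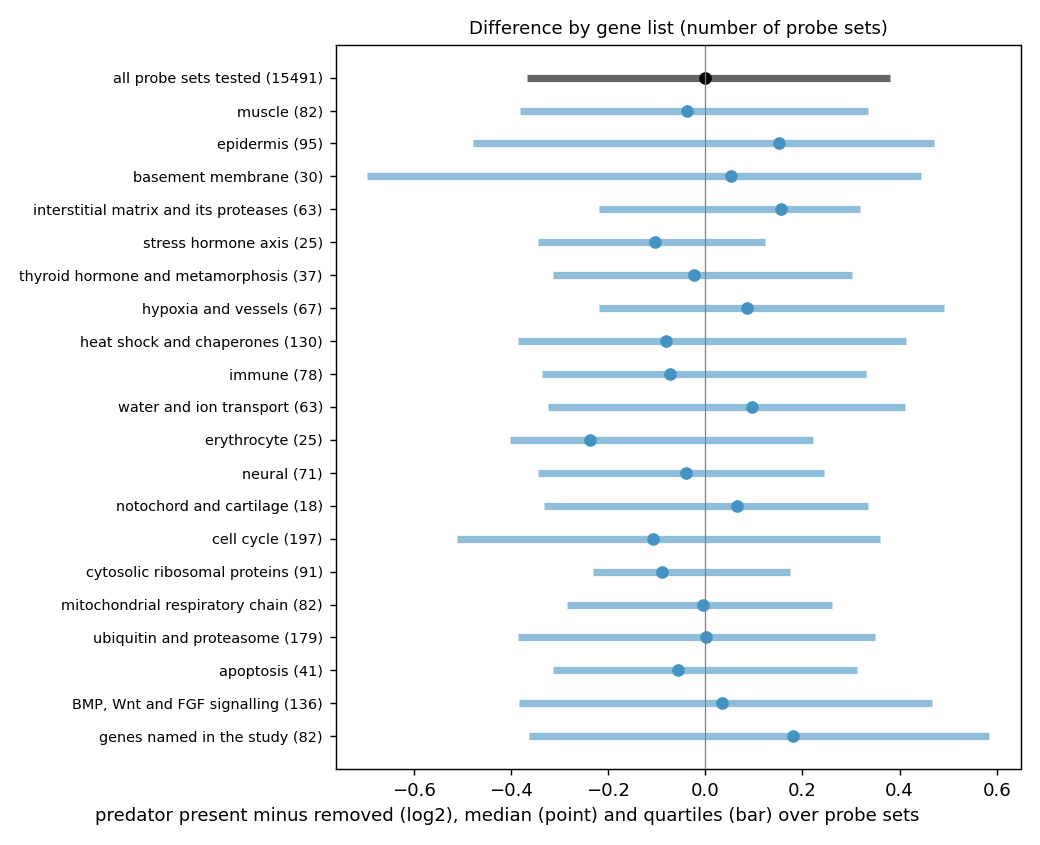
Median (point) and quartiles (bar) of the difference between predator present and removed (x axis, log2) over the probe sets of each list, with all 15491 in black. The medians lie between -0.237 (erythrocyte) and 0.18 (genes named in the study), and the quartile bars of all lists cross 0.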

How the data were processed

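Scans of Affymetrix arrays were turned into MAS5 signals by the authors, and GCOS and MAS5 are named in the submitters' processing notes without a version. The deposited log2 values were used as they stood. Per the methods GeneSpring had then shifted every probe set until its median over the 14 arrays was 0, which left no level for a filter on low signal or for a trend of the variance. The array medians ran from -0.00494 to 0.00677. The labels give 6 µg and the methods another amount of RNA for labelling.

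Of 15611 probe sets, 120 of added controls were left out. limma 3.58.1 in R 4.3.3 was fitted with 1 mean for each of 4 groups (8 residual and 5.42 prior degrees of freedom), with Benjamini-Hochberg adjustment over 15491. Gene symbols came from the platform annotation, 1 symbol for 9304, several for 195 and none for 5992. Named were the 12 probe sets with 1 symbol and the smallest p in each direction for presence and 6 for the interaction, and in each list those with the smallest p. Members and lists were chosen with earlier results of these data known, and chance name matches were taken out of the lists by name after the values had been seen. Control transcripts were compared by exact permutation. The code was tested on simulated data. The number of arrays limits the precision. Alternatives are given in the closing section.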

Additional observations from a re-analysis of the deposited data

Results flagged for a closer look

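In 66 groups of 6 arrays (the 24 genes named for presence and the 9 control transcripts, each with a predator and after removal), 7 (10.6%) had 1 array farther from the rest than Dixon's limit. About 1 of 20 independent groups of normal values would pass this limit. Here each group mixes 2 predators, the genes were chosen by p on these arrays, and Dap and Thr flag the same array. The 10.6% can therefore not show an excess. For smc3.L after removal, −Salam 3 was at 1.31 and the next array at -0.979. XB5768883.L was at -1.29 in Drago 3, with the next array with a predator at 0.991. eef1g.S was at -2.22 in Drago 2, with the next at -0.967. btf3.S after removal was at -0.857 in −Salam 1, with the next at 1.12. Of the added controls, Dap (3.28, next -0.613) and Thr (1.51, next -0.673) stood high on −Salam 1 among the arrays after removal, and Trp stood at 1.51 on Drago 1 with the next array with a predator at 0.469. No gene's interaction passed the test.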

How the results depend on the processing

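The count of called probe sets was 0 for presence in all 25 alternatives and 0 for the interaction in all 22, with smallest adjusted p-values between 0.118 and 0.798 and between 0.178 and 0.724. At an unadjusted p under 0.05, leaving out each array in turn gave 797 to 902 probe sets for presence and 820 to 919 for the interaction. Limiting the test to probe sets with 1 symbol gave 477 and 518, because fewer were tested. Separation within each predator in the same direction gave 69 probe sets in place of 34. Deviations of arrays with the same number correlated between -0.0134 and 0.0161, and those with other numbers between -0.0258 and 0.0291. Arrays of the same group correlated no more (-0.0187 to 0.00999), so whether numbers pair the arrays is not settled. The control Thr fell from array 1 to 3 in Drago (2.56, 1.42, -0.59) and Salam (2.27, 1.16, -1.16). It also fell in −Salam (1.51, -0.673, -1.55), but not in −Drago (-1.09, -1.01, -1.18). With the replicate block 0 probe sets were called, and 822 and 849 had an unadjusted p under 0.05. All 860 values of the named genes under the alternatives kept their sign. These genes were chosen by their p on the same arrays that the alternatives refit, so the kept signs are not independent evidence. The count of intervals within 1 of 0 (1358), added after seeing the data, was 2113 without moderation of the variance, 364 with the poly-A level as a term and 0 within either poly-A level, and 756 to 1038 without 1 array. With 7 and 5 arrays, the fits within a poly-A level rest on few arrays. The 5 with high controls hold 1 array after removal, −Salam 1, so their difference reads Salam 1 and 2 against it and nothing of the dragonfly. Lost signal levels keep well and poorly hybridized probe sets from being told apart.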
